A study of Arabidopsis thaliana with 12 samples.

Results

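Leaf transcripts of the Arabidopsis thaliana mutant sex1-3 were compared with those of wild type Columbia at the end of the night, on Affymetrix ATH1 arrays. The comparison used the 3 arrays titled Sex1-3 and the 3 titled Col-WT, which are 6 of the 12 arrays of the series. Per the labels, sex1-3 is an induced mutation in the Col-0 background and wild type is the Col0 strain; the other 6 arrays came from sex4-3 and ptpkis2, both Salk insertion lines, and entered the fit to estimate the spread between arrays. All 4 genotypes were grown in soil with a photoperiod of 12 hours at 100 micromol of light m-2 s-1 and 20 degrees Celsius, and 3 leaves from each of 8 plants per genotype were collected in the dark, with 0.5 hours of the night left. No transgene or chemical treatment is given for any group. The labels do not say whether the 3 arrays of a genotype hold RNA of separate plants, so a p-value here reflects array-to-array spread alone, and that spread may be technical.

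Leaves store part of the day's photosynthate as starch and break it down during the night, when it is the main source of sugar. The SEX1 gene encodes glucan, water dikinase, which adds phosphate groups to the surface of the starch granule so that amylases can attack it. Plants that lack this activity break starch down slowly at night and accumulate it. When plant cells run short of sugar, the kinase SnRK1 and the bZIP factors it acts on are known to promote the breakdown of proteins, lipids and amino acids and to restrain growth.

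Wild type replicate 2 stood apart from every other array. Its median signal was 62.2, where the other 11 arrays had 24.0 to 29.7, and chloroplast-encoded genes gave 8.83% of its summed signal, against 2.58% to 4.09% elsewhere. Across probe sets it correlated with the other wild type and sex1-3 arrays at r = 0.586 to 0.604, and those 5 correlated with one another at 0.903 to 0.926. Most results are therefore given with all 12 arrays and again without wild type replicate 2, which leaves 2 wild type arrays. The mutated gene's own transcript was not checked, because no probe set is named SEX1 in the annotation used here. The leaf genes LHCB4.1, LHCB4.2 and LHCB4.3, subunits of the light-harvesting antenna, and RCA, the activase of Rubisco, gave high signals on all 6 arrays, from 842 for LHCB4.3 on wild type replicate 2 to 12698 for RCA on the same array, and 0 of the 4 passed the test in either fit. No gene of the root, seed and flower marker lists had a named probe set. In whole leaves, fewer cells of a type and less RNA per cell cannot be told apart.

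With all 12 arrays, limma called 403 of 13647 tested probe sets between sex1-3 and wild type at an adjusted p below 0.05, which is 2.95%. Of these, 148 (1.08%) were higher and 255 (1.87%) lower in sex1-3. Without wild type replicate 2 there were 1211 calls (8.87%), 441 higher (3.23%) and 770 lower (5.64%), and they included all 403. The calls were large: 334 of the 403 differed over 2-fold, 223 of them lower in sex1-3, and the median size of a called difference was 1.46 on the log2 scale (0.99 for the 1211). In all 403 the 3 sex1-3 signals lay entirely above or entirely below the 3 wild type signals, a separation found in 22.6% of the 13647 (38.5% without replicate 2). The calls and the separation come from the same signals, so the separation is no further result. The split between higher and lower calls moved with the scaling of the arrays. Centring each array on its median shifted the median difference of all tested probe sets from -0.023 to 0.519 with 12 arrays, and the calls became 53 higher and 33 lower; without wild type replicate 2 the median moved from -0.057 to 0.098 and the calls became 887 higher and 510 lower. Quantile normalization moved the median to 0.158 with 12 arrays, and 83 probe sets were called higher and 124 lower.

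**Figure D1:**
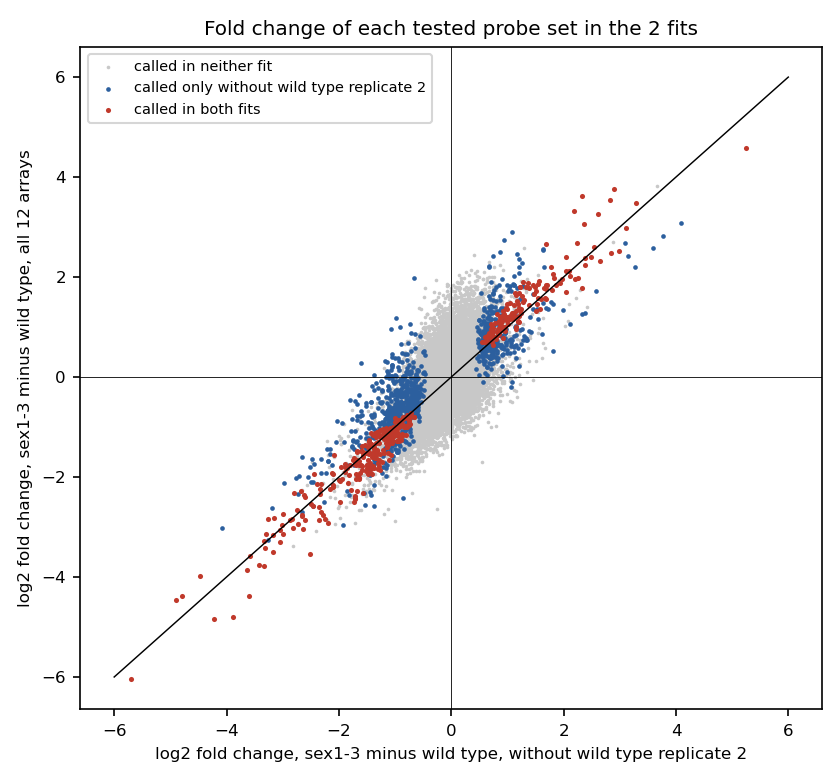
Log2 fold change of each tested probe set in sex1-3 minus wild type, without wild type replicate 2 on the horizontal axis and with all 12 arrays on the vertical axis, with the line of equal values. The 403 probe sets called in both fits (red) lie near the line, whereas the probe sets called only without that array (blue) scatter widely in the vertical direction.

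In the following text, differences are sex1-3 minus wild type on the log2 scale, ± the standard error of the limma fit, and signals are listed for replicates 1, 2 and 3 of wild type against replicates 1, 2 and 3 of sex1-3. Of the 403 calls, 189 belonged to a probe set with 1 named gene, 67 higher and 122 lower, and 212 were unnamed here. The largest named differences are shown with their signals in the plot of single arrays. Those genes were chosen among calls of both fits whose signals did not overlap, so the separation of their groups is no further result. The 20 largest rises ranged from 1.68 to 3.11 on the log2 scale without wild type replicate 2, and the 20 largest falls from -2.52 to -4.90. Among the rises, 16 of 20 genes had all 3 sex1-3 signals above 100. Among the falls, 12 of 20 had all 3 sex1-3 signals below 20, close to the low end of the arrays, so that the sizes of those falls are less certain than their direction. The filter on low signal took the mean over all genotypes, so a fall could pass it through arrays where the gene was high. Filtered and fitted on the 6 arrays alone, 13 falls and 19 rises were tested, and limma called 0 of either. Without wild type replicate 2 the same fit tested 12 falls and 20 rises and called all of them. When every signal under a floor of 4.19 (the 20th percentile) was set to that floor, 19 of the 20 falls were still called with 12 arrays and 20 of 20 without wild type replicate 2, where they then ranged from -1.53 to -4.90. All 20 rises and all 20 falls were also called without wild type replicate 3. Of the 20 rises, 18 stayed past the threshold without wild type replicate 1, 13 without sex1-3 replicate 1, 15 without replicate 2 and 13 without replicate 3, and of the 20 falls the counts were 18, 18, 17 and 16. Quantile normalization of 12 arrays kept 15 rises and 14 falls past the threshold and median centring 17 and 10, and without wild type replicate 2 both scalings kept all 20 of each.

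**Figure D2:**
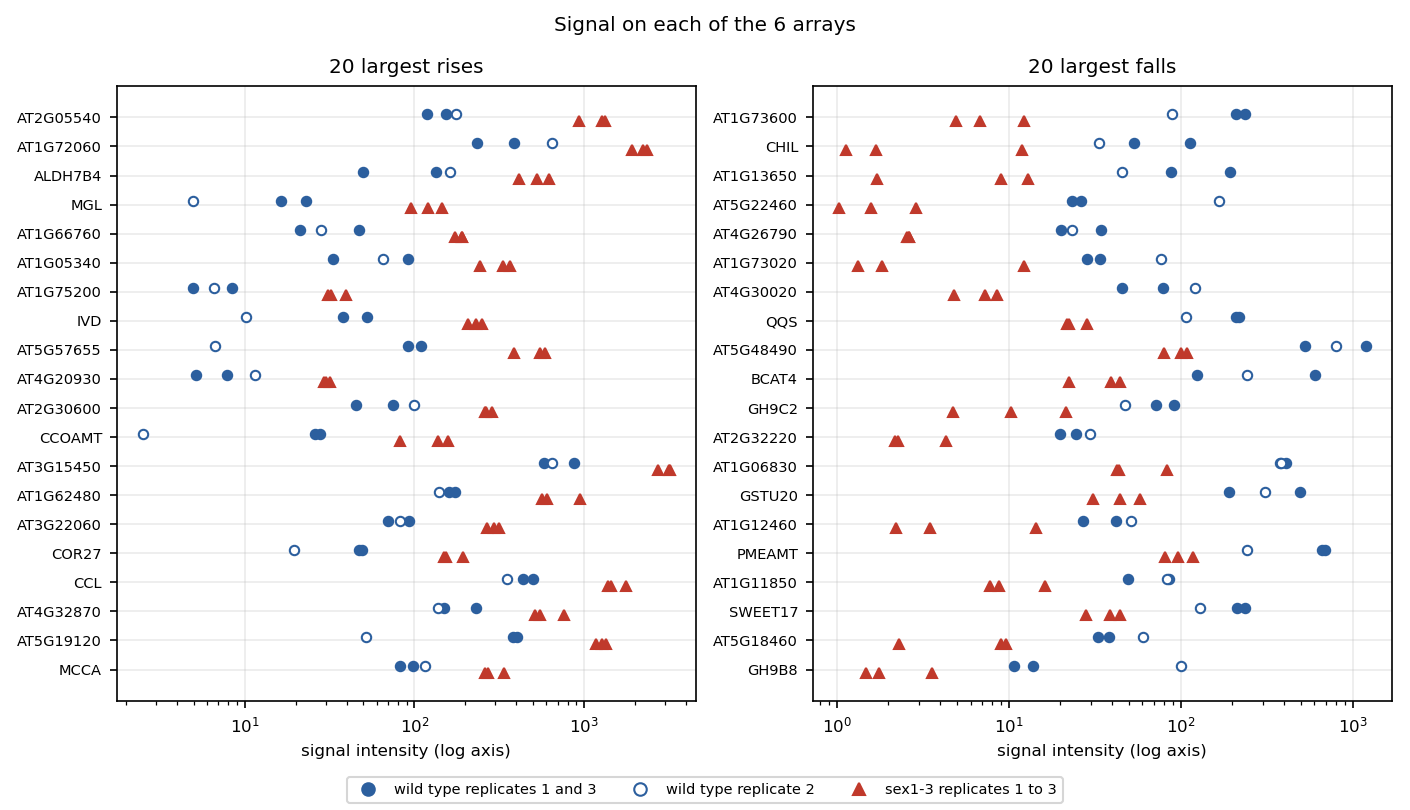
Signal intensity of the 20 named genes with the largest rises (left) and the 20 with the largest falls (right) in sex1-3, on log axes, 1 point per array: wild type replicates 1 and 3 (filled circles), wild type replicate 2 (open circles) and the 3 sex1-3 arrays (triangles). The genes were chosen to have non-overlapping signals, so in each row the triangles lie to 1 side of all circles. The open circle often lies away from the filled ones, as for MGL, IVD and AT5G57655 on the left and AT5G22460 and GH9B8 on the right.

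Genes that break down leucine and methionine were among the largest rises in sex1-3. All gene lists in this report were chosen with earlier results of these data known. Their counts beside the share of all probe sets are therefore descriptions and not tests. Of the 16 genes in the list of leucine, lysine and methionine breakdown, 10 had a named probe set, all 10 were tested, and 3 rose with 12 arrays (IVD, MCCA and MGL) while none fell; with 1.08% of all probe sets called higher, the median of the 10 was 1.25 and that of all tested probe sets -0.02. Without wild type replicate 2, 4 of 10 rose (3.23% of all probe sets did), the median was 0.71, and all 10 values lay above 0. IVD (AT3G45300) encodes isovaleryl-CoA dehydrogenase, which oxidises the first acyl-CoA of leucine breakdown in mitochondria. Its signal was 37.8, 10.2 and 52.7 on wild type replicates 1, 2 and 3 and 232, 208 and 251 on the sex1-3 arrays, so that even the lowest mutant signal was several-fold above the highest wild type signal. The log2 difference was 3.07 ± 0.48 (adjusted p = 0.0057) with 12 arrays. It was 2.36 ± 0.22 (adjusted p = 1.7e-05) once replicate 2, the array with the lowest IVD signal, was left out. MCCA (AT1G03090), the biotin-carrying subunit of methylcrotonyl-CoA carboxylase that acts after IVD, had 81.9, 116 and 98.8 in wild type and 270, 337 and 262 in sex1-3. Its difference was 1.56 ± 0.21 (adjusted p = 0.0025), and 1.68 ± 0.19 (adjusted p = 8.7e-05) without replicate 2. MCCB, the other subunit of the same enzyme, had 105, 19.6 and 131 against 175, 148 and 124, overlapping groups, and did not pass (1.19, adjusted p = 0.25, and 0.33, adjusted p = 0.31, without replicate 2).

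MGL (AT1G64660), methionine gamma-lyase, which splits methionine and feeds isoleucine synthesis, was nearly dark in wild type with 16.3, 4.97 and 23 and reached 146, 120 and 96 in sex1-3. The difference was 3.27 ± 0.51 (adjusted p = 0.0061), or 2.62 ± 0.32 (adjusted p = 0.0002) without replicate 2. ETFQO (AT2G43400), which passes electrons from IVD and related dehydrogenases to the respiratory chain, depended on the outlying array. It had 44.7, 289 and 48 in wild type and 95.3, 85 and 95.2 in sex1-3; the 2 other wild type arrays lay below every mutant array, and replicate 2 lay far above them. Its difference was 0.10 ± 0.55 (adjusted p = 0.92) with 12 arrays and 0.99 ± 0.19 (adjusted p = 0.0059) without replicate 2. The flavoprotein subunits ETFALPHA and ETFBETA stand between IVD and ETFQO. They had 1.31 and -0.43 with 12 arrays, and 0.02 and 0.09 without replicate 2. D2HGDH, the hydroxyglutarate dehydrogenase that uses the same electron route, had 0.01 and 0.19. ETFALPHA, ETFBETA and D2HGDH did not pass in either fit. The locus AT2G26800, of the same list, had 0.52 with 12 arrays and 0.43 without replicate 2 and did not pass. AT4G33150, listed in RefSeq as LKR/SDH, the bifunctional enzyme that starts lysine breakdown, had 32.1, 11.8 and 45.9 against 138, 72 and 61.8. The groups did not overlap, but the test did not pass (1.71 ± 0.50, adjusted p = 0.095, and 1.15 ± 0.36, adjusted p = 0.065, without replicate 2); without wild type replicate 3 the adjusted p was 0.036. IVD, MCCA and MGL were called with each single array of the comparison left out. Under quantile normalization of 12 arrays IVD (3.64, adjusted p = 0.071) and MGL (4.14, adjusted p = 0.085) lost their call, and both kept it without wild type replicate 2.

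Of 8 tested aldehyde dehydrogenases, 2 rose and none fell in either fit, where 1.08% of all probe sets were called higher with 12 arrays and 3.23% without replicate 2. ALDH7B4 (AT1G54100), which oxidises aldehydes made under osmotic stress, had 49.6, 162 and 134 in wild type and 621, 413 and 525 in sex1-3, well separated groups with a difference of 2.32 ± 0.44 (adjusted p = 0.016) and 2.65 ± 0.40 (adjusted p = 0.00095) without replicate 2. ALDH6B2 (AT2G14170), methylmalonate semialdehyde dehydrogenase of valine breakdown, had 93.9, 118 and 166 against 320, 277 and 295. Its difference was 1.28 ± 0.24 (adjusted p = 0.016), and 1.25 ± 0.24 (adjusted p = 0.005) without replicate 2. With 12 arrays, the ALDH7B4 call was lost without sex1-3 replicate 1 or 3 (adjusted p = 0.075 and 0.075), and the ALDH6B2 call without sex1-3 replicate 1, 2 or 3 (adjusted p = 0.072, 0.05 and 0.072). Median centring of 12 arrays left ALDH6B2 at 1.82 (adjusted p = 0.061). The family was grouped after the calls had been seen.

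Members of a list of genes held down by sugar rose as well. The list of sugar-repressed and energy signalling genes was written from memory and had 26 members, of which 9 had a named probe set and all 9 were tested. In either fit 5 rose and none fell (1.08% of all probe sets were called higher with 12 arrays and 3.23% without replicate 2), with a median of 1.44 for 12 arrays and 1.19 without wild type replicate 2. Only AKINBETA1 of the 5 has a symbol in the annotation, and the other 4 are loci to which the files give no role. Quantile normalization of 12 arrays left 4 of the 5 calls and median centring 3. AKINBETA1 (AT5G21170), a beta subunit of SnRK1 that is itself repressed by light and sugar, had the smallest standard error of the 5. Its signals were 474, 418 and 459 in wild type and 1272, 1196 and 1181 in sex1-3, with little spread within either genotype. The difference was 1.44 ± 0.14 (adjusted p = 0.00041), and 1.38 ± 0.13 (adjusted p = 1.7e-05) without replicate 2. AT4G16360, listed as KINbeta2, the other beta subunit with a probe set here, had overlapping signals (122, 49.3 and 110 against 122, 110 and 90.4) and a difference of 0.29 that turned to -0.12 without replicate 2, neither past the threshold.

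AT2G05540, a locus without a symbol, had the largest rise of any named gene without replicate 2. It went from 118, 177 and 154 to 932, 1335 and 1283, a difference of 2.98 ± 0.23 (adjusted p = 0.00024) and 3.11 ± 0.22 (adjusted p = 2.4e-06). AT3G15450, also without a symbol, was the brightest of the list, at 869, 648 and 582 in wild type and 3178, 3199 and 2730 in sex1-3 (2.13 ± 0.18, adjusted p = 0.00036, and 2.09 ± 0.18, adjusted p = 1e-05, without replicate 2). For these loci wild type replicate 2 lay close to the other wild type arrays. AT2G20670 rose by 1.2 (adjusted p = 0.017) and AT4G27450 by 1.46 (adjusted p = 0.029), or by 1.00 and 1.19 without replicate 2 (adjusted p = 0.0056 and 0.013). The AT2G20670 call was lost without sex1-3 replicate 1 or 2 (adjusted p = 0.055 and 0.079), and the AT4G27450 call without wild type replicate 1 or any 1 sex1-3 array (adjusted p = 0.073, 0.096, 0.096 and 0.11). Median centring of 12 arrays ended both calls (adjusted p = 0.11 and 0.12), and quantile normalization that of AT4G27450 (adjusted p = 0.057). SIS (AT5G02020), a serine-rich protein named for its induction by salt, had 81.7, 55.2 and 212 against 375, 346 and 227. Its groups did not overlap, since the highest wild type array, replicate 3, lay just under the lowest mutant array, and its difference was 1.65 ± 0.45 (adjusted p = 0.078), 1.23 ± 0.38 (adjusted p = 0.057) without wild type replicate 2, and past the threshold without replicate 3 (adjusted p = 0.0091). BZIP53, a bZIP factor that acts downstream of SnRK1, had 0.40 and 0.13 without replicate 2, and EXO, an extracellular protein of growth control, had 1.18 and 0.34; neither passed.

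**Figure D3:**
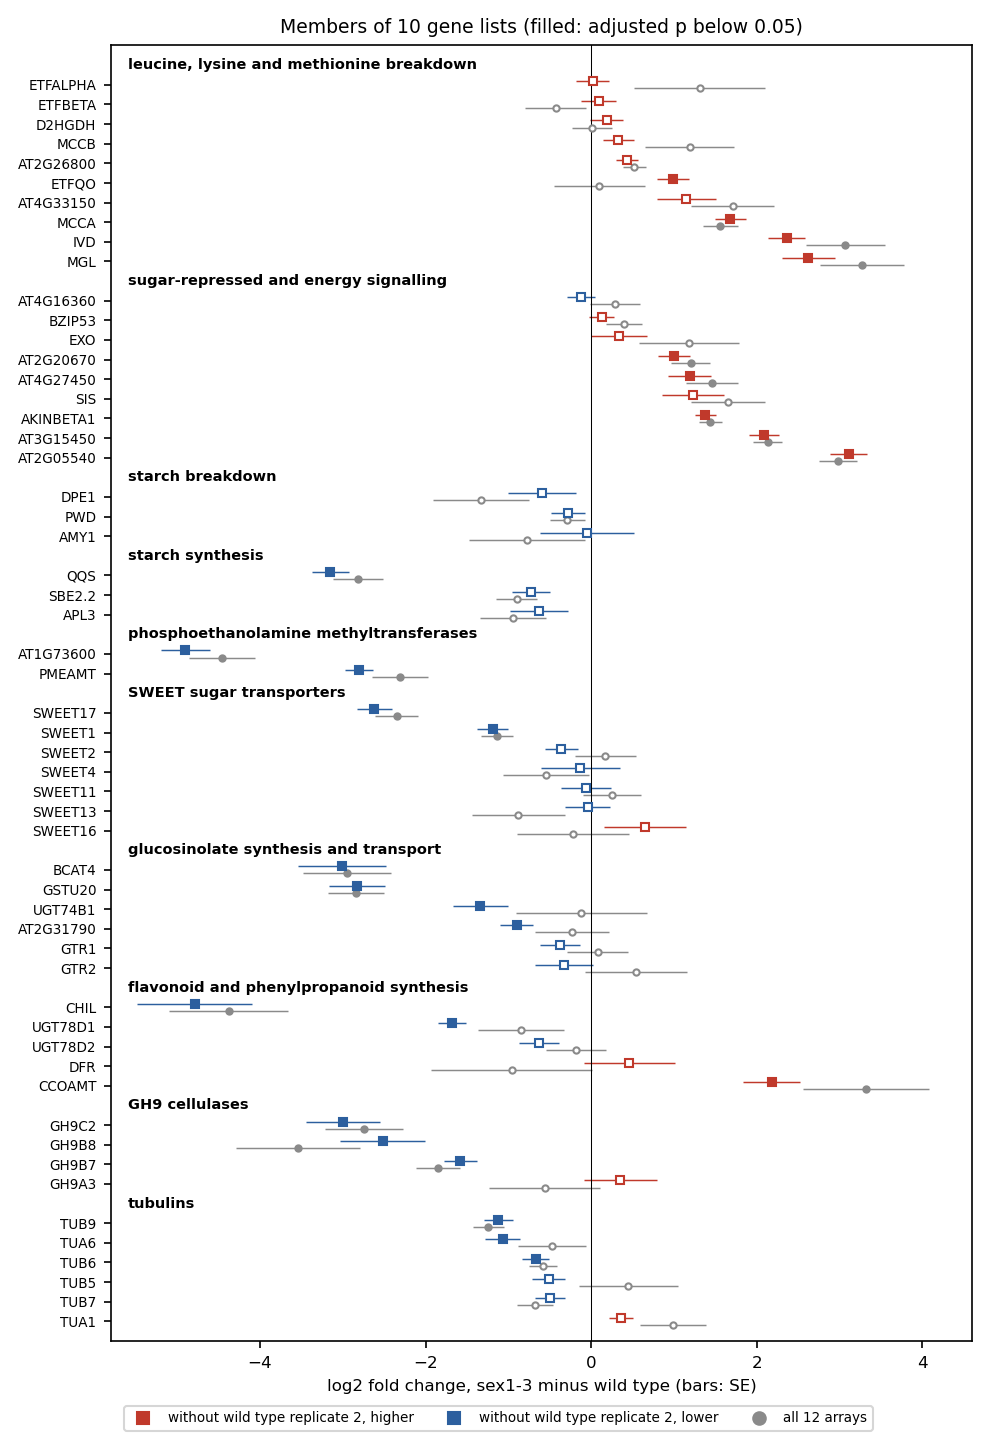
Log2 fold change, sex1-3 minus wild type, of each tested member of 10 gene lists, with standard errors as bars; squares are values without wild type replicate 2 and grey circles those of all 12 arrays, filled where the adjusted p was below 0.05. The upper groups, amino acid breakdown and sugar-repressed genes, lie mostly to the right of 0, and both phosphoethanolamine methyltransferases, 3 of the 4 GH9 cellulases, BCAT4, GSTU20, CHIL and QQS lie far to the left.

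The other rises with a symbol among the largest 20 were the single genes COR27, CCL and CCOAMT. COR27 (AT5G42900), a cold-regulated repressor of evening clock genes, was the 1 clock gene tested of 19 listed. It had 48.9, 19.4 and 47.4 in wild type and 150, 193 and 154 in sex1-3, each mutant array at least 3-fold above the highest wild type array, with a difference of 2.21 ± 0.32 (adjusted p = 0.0042) and 1.77 ± 0.18 (adjusted p = 3.7e-05) without replicate 2. CCL (AT3G26740), named for its likeness to a clock-controlled and light-regulated RNA, had 438, 351 and 503 against 1433, 1392 and 1772, again without overlap (1.84 ± 0.24, adjusted p = 0.002, and 1.70 ± 0.22, adjusted p = 0.00033). CCOAMT (AT1G67980), a caffeoyl-CoA methyltransferase of phenylpropanoid synthesis, had 25.8, 2.51 and 27.8 against 138, 82.7 and 157. Wild type replicate 2 was about 10-fold below the other wild type arrays there, and the difference shrank from 3.32 ± 0.76 (adjusted p = 0.042) to 2.18 ± 0.34 (adjusted p = 0.0013) without it.

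The remaining rises of the largest 20 were loci without a symbol. AT1G72060 reached 2226, 1912 and 2363 in sex1-3 from 233, 647 and 388 in wild type (2.48 ± 0.36, adjusted p = 0.004, and 2.84 ± 0.29, adjusted p = 3.6e-05, without replicate 2). AT1G66760, AT1G05340, AT3G22060, AT1G62480, AT2G30600 and AT4G32870 had differences of 2.60, 2.41, 1.85, 2.13, 1.96 and 1.84 with 12 arrays. Without replicate 2 they had 2.55, 2.49, 1.86, 2.04, 2.21 and 1.69, so the outlying array moved these values little. AT5G57655 and AT5G19120 were different. Their wild type signals were 92.2, 6.66 and 110 for AT5G57655 and 404, 52.1 and 382 for AT5G19120, so that replicate 2 lay far below replicates 1 and 3. Their differences were 3.62 and 2.66 with 12 arrays and 2.32 and 1.68 without it. AT1G75200 and AT4G20930 were low in both genotypes, with all wild type signals below 20 and sex1-3 signals of 39.4, 31 and 32.2 and 29.5, 31.6 and 30.3. With 12 arrays, leaving out any 1 sex1-3 array ended the calls of CCOAMT, AT5G57655, AT5G19120, AT1G05340 and AT4G20930, with adjusted p up to 0.17, and the last 2 calls were also lost without wild type replicate 1. The AT1G75200 call was lost without sex1-3 replicate 1 or 3 (adjusted p = 0.068 and 0.059).

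Both measured genes of the phosphoethanolamine methyltransferase list fell, 1 of them by the largest step of any named gene without wild type replicate 2. These enzymes methylate phosphoethanolamine on the way to phosphocholine, the head group precursor of phosphatidylcholine. AT1G73600, a locus without a symbol that was entered in this list from memory, had 210, 89.6 and 236 on the wild type arrays and 12.3, 6.82 and 4.95 on the sex1-3 arrays. The difference was -4.46 ± 0.40 (adjusted p = 0.00039), and -4.90 ± 0.30 (adjusted p = 9.6e-07) without replicate 2, which was the lowest of the wild type arrays. PMEAMT (AT1G48600), phosphomethylethanolamine N-methyltransferase, had 694, 244 and 663 against 96.3, 118 and 80.7. Its difference was -2.31 ± 0.34 (adjusted p = 0.0042), and -2.80 ± 0.17 (adjusted p = 9.6e-07) without replicate 2, where the standard error was smaller. PMEAMT was not called after median centring of 12 arrays (-1.77, adjusted p = 0.18). The third gene of the list had no named probe set.

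Of 6 tested genes listed under starch synthesis or breakdown, 1 fell and none rose in either fit (1.87% of all probe sets were called lower with 12 arrays and 5.64% without replicate 2). QQS (AT3G30720), a gene found only in Arabidopsis thaliana whose silencing is known to raise leaf starch, fell from 209, 108 and 219 to 21.8, 28.6 and 22.3. The groups were far apart on every array, and the difference was -2.82 ± 0.30 (adjusted p = 0.00061), and -3.15 ± 0.22 (adjusted p = 2.4e-06) without replicate 2; median centring of 12 arrays left it at -2.28 (adjusted p = 0.072). SBE2.2, a starch branching enzyme, had 189, 292 and 227 against 143, 139 and 97.1. Its groups did not overlap either, but the difference of -0.90 ± 0.25 (adjusted p = 0.079), and -0.73 ± 0.23 (adjusted p = 0.06) without replicate 2, did not pass. APL3, a large subunit of ADP-glucose pyrophosphorylase, had -0.94 and -0.63, and APL4 was below the filter on low signal. Of 23 genes listed under starch breakdown, only 3 were tested and none passed in either fit. With 12 arrays 1 had an unadjusted p below 0.05 in limma, and 0 did without replicate 2. PWD, phosphoglucan, water dikinase, which acts on starch already phosphorylated by SEX1, had 182, 219 and 248 against 203, 165 and 160, overlapping groups with a difference of -0.29 ± 0.21 (adjusted p = 0.42) and -0.28 ± 0.21 (adjusted p = 0.47). DPE1, the plastid enzyme that recycles maltotriose, had -1.33 (adjusted p = 0.24) with 12 arrays and -0.59 (adjusted p = 0.42) without replicate 2, an array on which its signal of 123 was over 4-fold above the other wild type signals. AMY1, an alpha-amylase, had -0.77 (adjusted p = 0.51) and -0.05 (adjusted p = 0.97).

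SWEET17 and SWEET1 were the 2 of 7 tested SWEET genes to fall in both fits (1.87% and 5.64% of all probe sets were called lower). The family encodes sugar transporters of the plasma membrane and the vacuole. SWEET17 (AT4G15920), a fructose transporter of the vacuolar membrane, had 214, 129 and 237 in wild type and 28.2, 44.7 and 38.8 in sex1-3, and its difference was -2.35 ± 0.26 (adjusted p = 0.00093), and -2.62 ± 0.21 (adjusted p = 5.3e-06) without replicate 2. SWEET1 (AT1G21460), a glucose transporter, had 181, 148 and 149 against 82, 59.6 and 76.8, a smaller step with narrow spread (-1.14 ± 0.19, adjusted p = 0.009, and -1.19 ± 0.19, adjusted p = 0.0012). Median centring of 12 arrays left SWEET17 at -1.81 (adjusted p = 0.12) and SWEET1 at -0.59 (adjusted p = 0.3). Neither SWEET11 nor SWEET13, sucrose exporters of leaves, passed: without replicate 2 they had -0.06 and -0.04, SWEET2 had -0.36, SWEET4 -0.13 and SWEET16, another vacuolar transporter, 0.65. With 14 SWEET probe sets named, the other 7 were below the filter on low signal.

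Among genes of glucosinolate synthesis, which make the sulphur-containing defence compounds of the cabbage family, 2 of 6 tested fell with 12 arrays and 4 of 6 without wild type replicate 2. The background was 1.87% and 5.64% of all probe sets. BCAT4 (AT3G19710), the aminotransferase that starts the side chain elongation of methionine, had 124, 242 and 604 against 44.6, 39.6 and 22.4. The wild type arrays differed among themselves by nearly 5-fold but all lay above the mutant arrays, and the difference was -2.95 ± 0.53 (adjusted p = 0.013), and -3.01 ± 0.53 (adjusted p = 0.0033) without replicate 2. Its call was lost without sex1-3 replicate 3 (adjusted p = 0.072) and after median centring of 12 arrays (-2.41, adjusted p = 0.12). GSTU20 (AT1G78370), a glutathione transferase linked to the same pathway, had 190, 311 and 493 against 57.9, 44.2 and 31 (-2.84 ± 0.34, adjusted p = 0.0013, and -2.83 ± 0.34, adjusted p = 0.00019). UGT74B1, which glucosylates the glucosinolate core, had 75.2, 9.59 and 196 in wild type and 60.7, 36 and 50.6 in sex1-3. Its value went from -0.12 ± 0.79 (adjusted p = 0.94) to -1.34 ± 0.33 (adjusted p = 0.023) without replicate 2, the array on which it was nearly dark, and quantile normalization and median centring of 12 arrays turned its sign (0.69 and 0.42). AT2G31790, listed with this pathway, went from -0.23 ± 0.45 (adjusted p = 0.77) to -0.90 ± 0.20 (adjusted p = 0.014) in the same way. The transporters GTR1 and GTR2 had -0.38 and -0.33 without replicate 2 and did not pass in either fit.

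Of 5 tested flavonoid and phenylpropanoid genes, CCOAMT rose and CHIL fell with 12 arrays (background 1.08% higher and 1.87% lower), and UGT78D1 also fell without wild type replicate 2 (3.23% and 5.64%). CHIL (AT5G05270), a chalcone isomerase-like protein that raises flavonoid output without catalysing a step, had 113, 33.5 and 53.7 in wild type and 1.13, 1.69 and 11.9 in sex1-3. The difference was -4.38 ± 0.72 (adjusted p = 0.0081), and -4.79 ± 0.69 (adjusted p = 0.00071) without replicate 2. Its mutant signals of 1.13 and 1.69 lie below the 20th percentile of their arrays (2.78 to 3.19), and with low signals raised to the floor the differences were -3.31 and -3.72. CHIL was not called under quantile normalization (-3.76, adjusted p = 0.062) or median centring of 12 arrays (-3.84, adjusted p = 0.075). UGT78D1, which adds rhamnose to flavonols, had 161, 26.8 and 140 against 52.9, 41.4 and 47.1. Wild type replicates 1 and 3 lay about 3-fold above the mutant arrays and replicate 2 below them, and the value went from -0.85 ± 0.52 (adjusted p = 0.35) to -1.68 ± 0.17 (adjusted p = 3.3e-05) without replicate 2. UGT78D2, its glucose-transferring relative, had -0.18 ± 0.36 (adjusted p = 0.77) and -0.63 ± 0.24 (adjusted p = 0.12), and DFR, dihydroflavonol reductase of anthocyanin synthesis, had -0.96 ± 0.97 (adjusted p = 0.55) and 0.46 ± 0.55 (adjusted p = 0.68); neither passed.

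The GH9 cellulases act in the remodelling of the cell wall as cells grow. Of 4 tested GH9 genes, which encode endo-1,4-beta-glucanases, 3 fell in both fits (1.87% and 5.64% of all probe sets did), and the median of the 4 was -2.30 for 12 arrays and -2.05 once replicate 2 was left out; 11 more named members were below the filter. GH9C2 (AT1G64390) had 72.4, 47.3 and 91.5 against 21.6, 10.3 and 4.74 (-2.74 ± 0.47, adjusted p = 0.01, and -3.0 ± 0.45, adjusted p = 0.00093). GH9B7 (AT1G75680) was brighter, with 303, 444 and 211 against 92.4, 86.9 and 74.7, and its difference was -1.85 ± 0.26 (adjusted p = 0.0032), and -1.58 ± 0.20 (adjusted p = 0.00025) without replicate 2. GH9B8 (AT2G32990) rested on low signals, 10.7, 101 and 13.8 against 1.48, 1.77 and 3.58, where wild type replicate 2 was several-fold above the other arrays. Its difference was -3.54 ± 0.75 (adjusted p = 0.029), and -2.52 ± 0.51 (adjusted p = 0.0074) without replicate 2; with 12 arrays the floor ended the call (-2.55, adjusted p = 0.077), as did leaving out any 1 sex1-3 array (adjusted p up to 0.1). All 3 mutant signals lay below the floor of 4.19, and without replicate 2 the floored difference was -1.53 (adjusted p = 0.027). GH9A3 had -0.56 and 0.35 without passing. Median centring of 12 arrays kept 1 of the 3 calls and the median of the 4 at -1.75.

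XTH32, a xyloglucan-modifying enzyme, was the 1 of 12 tested xyloglucan hydrolases and expansins to fall with 12 arrays, and 2 of 12 fell without replicate 2 (1.87% and 5.64% of all probe sets). It had 102, 218 and 84.8 against 39.2, 31.3 and 33.7 (-1.84 ± 0.33, adjusted p = 0.012, and -1.43 ± 0.22, adjusted p = 0.001, without replicate 2), and its call was lost without sex1-3 replicate 2 or 3 (adjusted p = 0.054 and 0.056). EXPA8, an expansin that loosens walls, joined it without wild type replicate 2 (-0.93 ± 0.23, adjusted p = 0.021). With 12 arrays EXPA8 had -0.71 ± 0.26 (adjusted p = 0.17). The synthases of the xyloglucan backbone CSLC5 and CSLC04 had 85.8, 57.5 and 52.6 against 30.2, 26.1 and 31.1 and 267, 133 and 237 against 155, 89.6 and 140. CSLC5 fell in both fits (-1.13 ± 0.23, adjusted p = 0.025, and -1.21 ± 0.22, adjusted p = 0.0037), CSLC04 passed without replicate 2 alone (-1.01 ± 0.20, adjusted p = 0.0057), and CSLC5 lost its call under both other scalings of 12 arrays (adjusted p = 0.4 and 0.31) as well as without wild type replicate 1 or any 1 sex1-3 array (adjusted p up to 0.096). CSLC04 had -0.70 (adjusted p = 0.18) with 12 arrays.

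Trichome birefringence-like genes belong to a family that acetylates wall polysaccharides. TBL26 and TBL35 fell among 14 tested with 12 arrays, and 3 of 14 fell without replicate 2 (1.87% and 5.64% of all probe sets). TBL26 had 61, 124 and 65.2 against 20.2, 21.8 and 25.4 (-1.82 ± 0.30, adjusted p = 0.0079, and -1.50 ± 0.22, adjusted p = 0.00098, without replicate 2) and TBL35 had 48.1, 115 and 40.6 against 18.2, 19.2 and 25.9 (-1.55 ± 0.37, adjusted p = 0.048, and -1.08 ± 0.25, adjusted p = 0.016). TBL35 passed narrowly, and its call was lost under both other scalings of 12 arrays (adjusted p = 0.093 and 0.1) as well as without wild type replicate 1 or any 1 sex1-3 array (adjusted p up to 0.15). TBL25 had -0.24 ± 0.30 (adjusted p = 0.63) with 12 arrays, passed without replicate 2 (-0.64 ± 0.19, adjusted p = 0.045), and turned to 0.30 under median centring of 12 arrays.

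Of the cytoskeleton, TUB9, a beta-tubulin, had 318, 347 and 226 against 126, 135 and 110. Its difference was -1.24 ± 0.19 (adjusted p = 0.0048) with 12 arrays and -1.12 ± 0.17 (adjusted p = 0.001) without replicate 2, and TUA6 and TUB6 joined it without replicate 2 (-1.07 ± 0.21, adjusted p = 0.0051, and -0.67 ± 0.16, adjusted p = 0.021). With 12 arrays TUA6 had -0.47 (adjusted p = 0.49) and TUB6 -0.58 (adjusted p = 0.11). The 6 tested tubulins had a median of -0.53, and -0.59 without replicate 2, with 1 and 3 called lower (1.87% and 5.64% of all probe sets). After median centring of 12 arrays the median was 0.02 with 0 calls by limma (2 at an unadjusted p below 0.05). Of all 13647 probe sets, 53 were then called higher and 33 lower, and TUB9 had -0.70 (adjusted p = 0.23). Without replicate 2 the same centring gave 2 tubulins lower and 1 higher, where 510 of all probe sets were lower and 887 higher. ACT11, an actin, chosen after its values were seen, had 86.9, 88.9 and 50.8 against 30, 30.1 and 34.7 (-1.21 ± 0.28, adjusted p = 0.039, and -1.07 ± 0.26, adjusted p = 0.018).

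Some genes encoded in the chloroplast genome were lower in sex1-3, and the sizes of their differences moved with the outlying array. All 69 named chloroplast genes were tested, grouped after the calls had been seen. With 12 arrays 5 fell and none rose (1.87% and 1.08% of all probe sets), and the median was -0.98. Leaving out wild type replicate 2, 12 fell and none rose (5.64% and 3.23%), and the median was -0.39. Under quantile normalization and median centring of 12 arrays 0 of the 69 were called by limma (30 and 18 had an unadjusted p below 0.05), and without replicate 2 the same scalings gave 13 and 12 lower calls. The share of all signal that came from chloroplast genes was 3.42%, 8.83% and 2.84% on the wild type arrays and 3.07%, 2.58% and 2.96% on the sex1-3 arrays, so that without replicate 2 the genotypes overlapped in this measure.

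The 5 chloroplast genes called with 12 arrays were psbB, psbC, psbD and psbT of photosystem II and ndhH of the NADH dehydrogenase-like complex. psbB, which encodes the inner antenna protein CP47, had 807, 955 and 320 in wild type and 197, 153 and 138 in sex1-3 (-1.97 ± 0.43, adjusted p = 0.035, and -1.66 ± 0.40, adjusted p = 0.019, without replicate 2). psbC, for the antenna protein CP43, had 2130, 3934 and 1165 against 663, 579 and 480 (-1.91 ± 0.44, adjusted p = 0.043, and -1.47 ± 0.36, adjusted p = 0.02). psbD, for the reaction centre protein D2, had 406, 723 and 222 against 137, 143 and 92.4 (-1.72 ± 0.40, adjusted p = 0.045, and -1.30 ± 0.32, adjusted p = 0.021). In all 3 the wild type arrays without replicate 2 still lay above every mutant array. psbT and ndhH had -1.94 ± 0.40 (adjusted p = 0.025) and -2.26 ± 0.52 (adjusted p = 0.042) with 12 arrays. Without replicate 2 they had -1.41 ± 0.25 (adjusted p = 0.0029) and -1.78 ± 0.44 (adjusted p = 0.022). With 12 arrays, leaving out wild type replicate 1 or any 1 sex1-3 array ended each of these 5 calls.

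Without wild type replicate 2 the calls also took in psaA of photosystem I (-2.47 ± 0.48, adjusted p = 0.0052), whose signals were 1997, 260 and 1129 and 524, 249 and 152, together with ndhE, the ribosomal protein genes rpl14, rpl16 and rpl20, ycf3 and accD, at -0.85 (rpl20) to -1.53 (ycf3). With 12 arrays psaA had -1.63 ± 0.68 (adjusted p = 0.22), rpl20 -2.41 (adjusted p = 0.19) and ycf3 -2.56 (adjusted p = 0.093). In that fit ndhE, rpl14, rpl16 and accD had -1.98, -1.91, -2.36 and -1.44 (adjusted p = 0.062, 0.063, 0.086 and 0.056). The case of rpl20 shows the range of the outlying array: its wild type signals were 229, 5600 and 206, against 117, 109 and 138 in sex1-3. Of the 12 tested genes of ATP synthase and the cytochrome b6f complex, 0 were called by limma in either fit (2 and 1 at an unadjusted p below 0.05), and the median was -0.75 for 12 arrays and 0.03 without replicate 2.

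**Figure D4:**
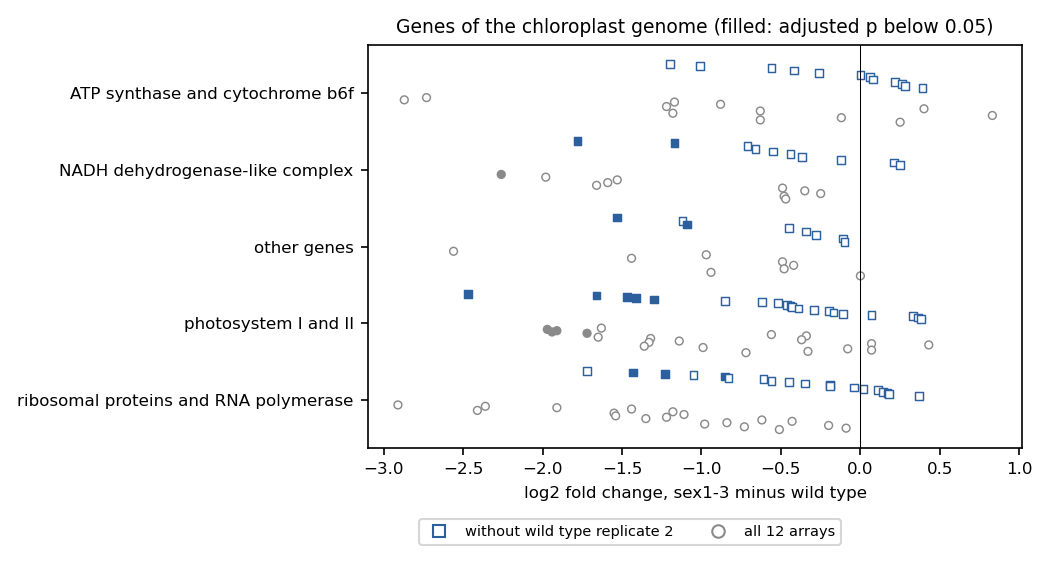
Log2 fold change, sex1-3 minus wild type, of the 69 tested genes of the chloroplast genome by function, without wild type replicate 2 (blue squares) and with all 12 arrays (grey circles), filled where the adjusted p was below 0.05. The grey values lie mostly further to the left, and the filled blue values fall in 4 of the 5 groups, none of them among the genes of ATP synthase and the cytochrome b6f complex.

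The other genes with a symbol called with 12 arrays fall outside these groups and were chosen after their values were seen. Whether their calls, and that of ACT11, hold with another array left out or under other scalings is not given here. APS3, an ATP sulfurylase that starts sulphate assimilation, had 78.6, 178 and 111 against 49.5, 39.7 and 55.9 (-1.27 ± 0.27, adjusted p = 0.032, and -0.96 ± 0.20, adjusted p = 0.0086, without replicate 2). MSRB5, a methionine sulfoxide reductase, had 230, 318 and 490 against 83.8, 137 and 125 (-1.55 ± 0.27, adjusted p = 0.011, and -1.57 ± 0.27, adjusted p = 0.0027). VTC4, a phosphatase of ascorbate synthesis, and MT1C, a metallothionein, had -1.26 and -1.62 with 12 arrays (adjusted p = 0.021 and 0.022). Without replicate 2 they had -1.47 and -1.34 (adjusted p = 0.00084 and 0.0088). MYC4, a jasmonate-responsive factor that also acts on glucosinolate genes, had 106, 211 and 194 against 82.4, 58.3 and 63.6 (-1.28 ± 0.26, adjusted p = 0.022, and -1.09 ± 0.23, adjusted p = 0.009), a step in which the lowest wild type signal lay above the highest mutant signal by less than the wild type arrays differed among themselves.

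AFR, an F-box protein of far-red light signalling, had -1.12 and -1.35 without replicate 2, RAP, which takes part in the maturation of chloroplast ribosomal RNA, -1.46 and -1.21, and BGLU40, a beta-glucosidase, -1.25 and -1.06. Their adjusted p were 0.021, 0.018 and 0.037 with 12 arrays, and 0.00027, 0.0057 and 0.02 without replicate 2. MRL7-L and LUL4 had -1.47 and -2.31 with 12 arrays (adjusted p = 0.032 and 0.047). Without replicate 2 they had -1.59 and -1.57 (adjusted p = 0.0052 and 0.01). For LUL4, a ubiquitin ligase, wild type replicate 2 at 156 was over 3-fold above the other wild type arrays. The 4 of these genes that rose were Fes1C, an exchange factor of Hsp70 chaperones, ACLA-3, a subunit of ATP citrate lyase, GT-1, a trihelix factor of light-regulated genes, and AR401. Fes1C had 151, 120 and 138 against 309, 321 and 328 (1.23 ± 0.16, adjusted p = 0.0019, and 1.14 ± 0.14, adjusted p = 0.00022) and ACLA-3 had 294, 155 and 356 against 587, 584 and 591 (1.21 ± 0.26, adjusted p = 0.032, and 0.86 ± 0.16, adjusted p = 0.0037). GT-1 and AR401 had 0.96 and 0.80, or 0.73 and 0.76 without replicate 2.

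Of the serine carboxypeptidase-like genes, grouped after the calls had been seen, scpl35 and scpl46 fell among 15 tested with 12 arrays (1.87% of all probe sets were called lower). scpl35 had 160, 106 and 158 against 76.5, 71.3 and 49.6 (-1.10 ± 0.24, adjusted p = 0.03, and -1.30 ± 0.20, adjusted p = 0.0012, without replicate 2) and scpl46 had 305, 336 and 278 against 164, 163 and 148 (-0.95 ± 0.21, adjusted p = 0.037, and -0.88 ± 0.21, adjusted p = 0.017). Both calls were lost under quantile normalization and median centring of 12 arrays, and without wild type replicate 1 or any 1 sex1-3 array. The scpl35 call was also lost without wild type replicate 3 (adjusted p = 0.05). Without wild type replicate 2, SCPL34 rose (1.02 ± 0.19, adjusted p = 0.0043) and scpl50, SCPL45 and scpl48 also fell (-2.20, -0.94 and -0.85), which makes 1 of 15 higher and 5 lower (3.23% and 5.64% of all probe sets). With 12 arrays SCPL34 had 1.76 (adjusted p = 0.076), and scpl50, SCPL45 and scpl48 had -1.67, -0.36 and -0.58.

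The other large falls were loci without a symbol. AT5G48490 was the brightest, with 1192, 803 and 531 in wild type and 101, 109 and 79.7 in sex1-3 (-3.06 ± 0.30, adjusted p = 0.00041, and -3.05 ± 0.30, adjusted p = 2.8e-05, without replicate 2). AT1G06830 had nearly equal wild type signals, 380, 383 and 409, against 42.4, 83.5 and 44.1 (-2.86 ± 0.26, adjusted p = 0.00039, and -2.87 ± 0.26, adjusted p = 1.7e-05). AT4G30020 had 45.6, 121 and 79.5 against 7.32, 8.51 and 4.81 and AT1G11850 had 85.7, 83.3 and 49.6 against 7.84, 16.2 and 8.84. Their differences were -3.50 and -2.77 with 12 arrays and -3.17 and -2.65 without replicate 2. AT1G13650, AT5G22460, AT4G26790, AT1G73020, AT2G32220, AT1G12460 and AT5G18460 had mutant signals below 20 on every sex1-3 array and differences of -2.61 (AT5G18460) to -4.48 (AT1G13650) without replicate 2. With 12 arrays, AT1G73020 lost its call without sex1-3 replicate 2 or 3, AT1G12460 without wild type replicate 1 or sex1-3 replicate 1 or 3, and AT5G18460 without wild type replicate 1 or sex1-3 replicate 2. On wild type replicate 2 the AT5G22460 signal was 167 and on the other wild type arrays 23.5 and 26.2, and its value was -4.80 with that array and -3.88 without it. All 3 of its mutant signals lay below the floor of 4.19, and with the floor those values were -3.48 and -2.57. With the floor and without replicate 2, AT4G26790 had -2.66, AT1G73020 -2.38, AT2G32220 -2.38, AT1G13650 -4.05, AT1G12460 -2.42 and AT5G18460 -2.32.

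Several other groups showed few calls, to be read against 1.08% of all probe sets called higher and 1.87% lower with 12 arrays, and 3.23% and 5.64% without replicate 2. Of 10 tested autophagy genes, which recycle cell contents, 0 were called by limma with 12 arrays (2 at an unadjusted p below 0.05, median 0.32) and ATG8F, a ubiquitin-like protein of the autophagosome, rose without wild type replicate 2. Its signals were 1240, 1519 and 1520 against 1944, 2216 and 1933, non-overlapping groups with a difference of 0.51 ± 0.16 (adjusted p = 0.11) and 0.56 ± 0.14 (adjusted p = 0.024). The senescence and defence factors WRKY53 and WRKY6 had 37.5, 31.3 and 87.1 against 90.2, 73.5 and 83.3 and 18.7, 14 and 37.1 against 64, 59.9 and 62.7. Their differences were 0.81 ± 0.39 (adjusted p = 0.27) and 1.54 ± 0.47 (adjusted p = 0.11), and, leaving out replicate 2, 0.52 ± 0.34 (adjusted p = 0.39) and 1.24 ± 0.43 (adjusted p = 0.091), none past the threshold. bZIP19, a factor of the zinc deficiency response, was the 1 of 7 tested bZIP genes called, and only without replicate 2 (0.49 ± 0.14, adjusted p = 0.04). With 12 arrays bZIP19 had 0.33 (adjusted p = 0.29). Of 22 tested UGT genes 0 passed in limma with 12 arrays (1 at an unadjusted p below 0.05), and 3 of 21 fell without replicate 2: UGT78D1 and UGT74B1, described with their pathways, and UGT76C2, a cytokinin glucosyltransferase. UGT76C2 had 151, 10.6 and 119 against 57, 77.3 and 57.6, and its value turned from 0.14 ± 0.75 (adjusted p = 0.92) to -1.08 ± 0.21 (adjusted p = 0.0053). Among 15 tested cytochrome P450 genes, CYP71B22 alone fell without replicate 2 (-0.77 ± 0.22, adjusted p = 0.043), and PRXR1, a peroxidase, went from 3147, 914 and 3471 to 1355, 1305 and 1091 (-0.79 ± 0.40, adjusted p = 0.28, and -1.41 ± 0.14, adjusted p = 3.8e-05), with replicate 2 again below the other wild type arrays. CYP71B22 had -0.96 (adjusted p = 0.069) with 12 arrays. GSTU20 was the 1 of 6 glutathione transferases called. FMA, a guard cell factor and the 1 tested marker of leaf cell types, had 0.65 and -0.40 without passing.

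The other 2 mutants were set beside sex1-3 for the same genes. The 3 comparisons with wild type share the wild type arrays, so each is given by its own values, and the direct comparison of sex1-3 with another mutant is the test of a difference. In sex4-3, the 20 largest rises of sex1-3 had values of -0.57 to 1.64 without wild type replicate 2 and the 20 largest falls -1.95 to 1.16; in ptpkis2 the ranges were -2.40 to 2.33 and -1.26 to 1.91. Since these 40 genes were chosen by their sex1-3 signals, the direct differences are given as a description. With 12 arrays, 13 of the 20 rises and 18 of the 20 falls were called against sex4-3, where 2.43% of all probe sets were, and 17 and 20 against ptpkis2, where 9.46% were. Leaving out wild type replicate 2, the counts were 18 and 19 against sex4-3 (14% of all probe sets) and 18 and 20 against ptpkis2 (29.1%). IVD had 33.5, 45.2 and 48.6 on the sex4-3 arrays and 39.6, 43 and 47.8 on the ptpkis2 arrays, where sex1-3 had 232, 208 and 251. Sex1-3 minus sex4-3 was 2.45 ± 0.48 (adjusted p = 0.021) and sex1-3 minus ptpkis2 2.41 ± 0.48 (adjusted p = 0.0083). Leaving out wild type replicate 2 does not change these differences but changes their error, and the adjusted p were then 6.6e-06 and 9e-07. For MGL the direct differences were 2.22 ± 0.51 (adjusted p = 0.045) and 2.49 ± 0.51 (adjusted p = 0.01).

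AKINBETA1 had 432, 462 and 477 in sex4-3, close to the wild type arrays, and 199, 207 and 215 in ptpkis2, below every wild type array. Sex1-3 exceeded sex4-3 by 1.41 ± 0.14 (adjusted p = 0.00083) and ptpkis2 by 2.55 ± 0.14 (adjusted p = 3e-06). AT3G15450 had 441, 532 and 466 in sex4-3 and 145, 138 and 120 in ptpkis2, and ptpkis2 minus wild type was -2.36 (adjusted p = 0.00036); sex1-3 exceeded them by 2.66 ± 0.18 (adjusted p = 9.7e-05) and 4.49 ± 0.18 (adjusted p = 2.6e-07). AT1G73600 had 156, 101 and 108 in sex4-3 and 590, 609 and 699 in ptpkis2, far above the mutant signals of sex1-3, and the direct differences were -4.0 ± 0.40 (adjusted p = 0.00083) and -6.40 ± 0.40 (adjusted p = 8.2e-06). SWEET17 had 113, 106 and 149 in sex4-3 and 277, 283 and 319 in ptpkis2, with direct differences of -1.73 ± 0.26 (adjusted p = 0.0054) and -3.0 ± 0.26 (adjusted p = 6.1e-05). QQS differed from both as well (-2.17 ± 0.30, adjusted p = 0.0031, and -1.90 ± 0.30, adjusted p = 0.002), while in ptpkis2 it also lay below wild type without replicate 2 (-1.26, adjusted p = 0.0068).

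For some genes sex1-3 did not differ past the threshold from another mutant with 12 arrays. BCAT4 had 38.9, 83.6 and 111 in sex4-3, and sex1-3 minus sex4-3 was -1.06 ± 0.53 (adjusted p = 0.44), whereas sex1-3 minus ptpkis2 was -3.21 ± 0.53 (adjusted p = 0.0029). Among the rises, COR27, AT1G66760, CCOAMT, AT5G57655 and AT5G19120 did not pass against sex4-3 (adjusted p = 0.17, 0.25, 0.22, 0.22 and 0.41). Nor did AT1G75200 and AT4G20930 (adjusted p = 0.16 and 0.61). COR27 had 95.2, 75.3 and 80.6 in sex4-3 and AT1G66760 had 91.9, 79.1 and 98.7. Without wild type replicate 2, AT1G66760 and AT4G20930 still did not pass against sex4-3 (adjusted p = 0.06 and 0.25). AT1G75200 and AT4G20930, both low genes, were at 27.8, 40.7 and 30.8 and 23.2, 23.4 and 14.2 in ptpkis2, and sex1-3 minus ptpkis2 was 0.06 ± 0.43 (adjusted p = 0.97) and 0.62 ± 0.41 (adjusted p = 0.44). PWD, DPE1 and AMY1 of the starch breakdown list did not differ past the threshold between sex1-3 and either other mutant, with or without wild type replicate 2. TBL26 ran the other way in ptpkis2: it had 231, 252 and 336 there, 1.77 against wild type (adjusted p = 0.042), and sex1-3 minus ptpkis2 was -3.59 ± 0.30 (adjusted p = 4.5e-05).

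**Figure D5:**
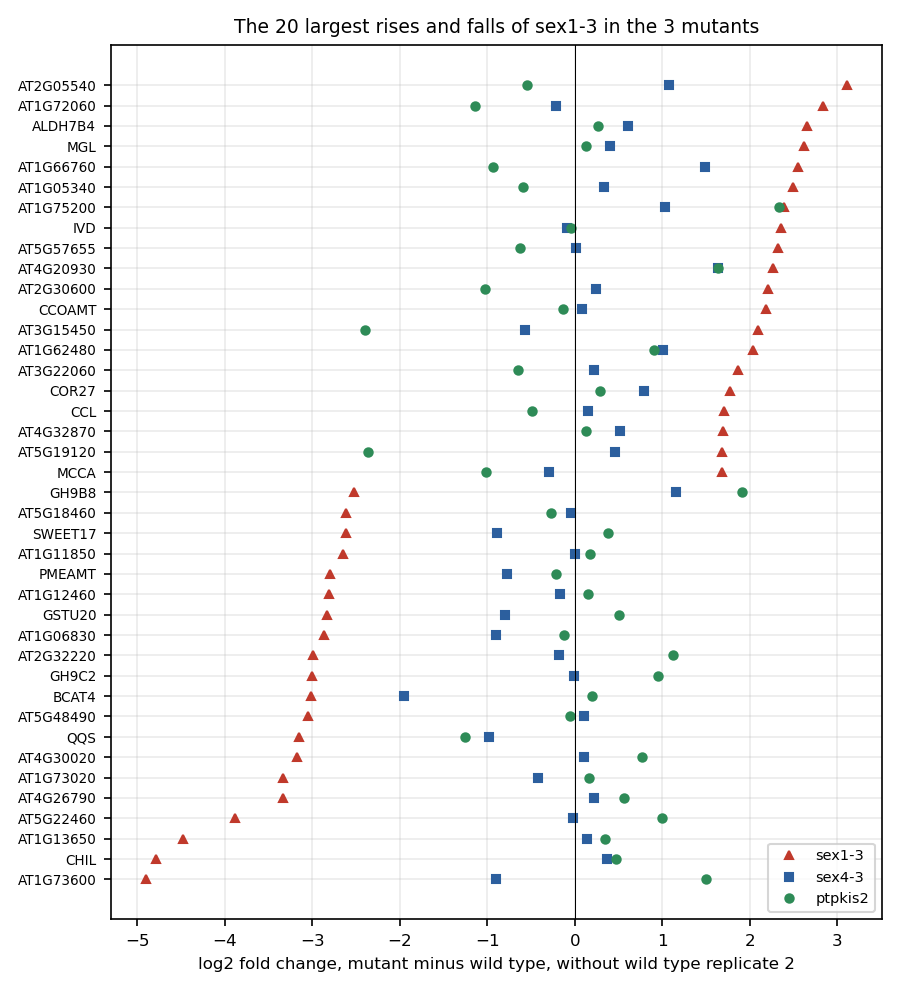
Log2 fold change against wild type, without wild type replicate 2, of the 20 largest rises and 20 largest falls of sex1-3 in sex1-3 (triangles), sex4-3 (squares) and ptpkis2 (circles). The rows were chosen by the sex1-3 values; the squares and circles scatter around 0 between -2.40 and 2.33, with AT3G15450 and AT5G19120 lowest and AT1G75200 highest in ptpkis2.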

How the data were processed

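The authors computed the deposited intensities with MAS5 and GCOS, per the submitters' processing notes, in versions not given in the sources. Each array has 1 linear, already scaled value for a probe set. Log2 of these was used with no pseudocount. Of 22810 probe sets, 64 controls and then the 40% with the lowest mean log2 signal were left out, leaving 13647; the cut fell at a geometric mean signal of 13.98. One model per probe set over 12 arrays (8 residual degrees of freedom) was estimated by lmFit and eBayes with a trend (limma 3.58.1, R 4.3.3), with Benjamini-Hochberg adjustment over all tested probe sets and calls at 0.05; tests were two-sided. The second fit left out wild type replicate 2, with the filter from the other 11 arrays. The spread is ± SE of log2 differences. An exact permutation test of 3 arrays against 3 cannot go below p = 0.1 and was not used. The fit was tested on simulated data with the spread of the 11 arrays other than wild type replicate 2. The fit with all 12 arrays was not simulated.

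Platform annotation, updated through RefSeq (TAIR10.1, names only), gave 13513 probe sets with 1 gene, 503 with several and 8730 without a name; 13436 of the first matched RefSeq. Named genes were the 20 largest rises and falls without wild type replicate 2 among single-gene probe sets called in both fits with non-overlapping signals, every tested member of the lists of amino acid breakdown, sugar-repressed genes, starch breakdown, starch synthesis and phosphoethanolamine methyltransferases, and up to 6 called members of every other list. Of 246 listed genes, 60 had a named probe set; 28 lists came from symbol patterns and 7 were added later. Members and lists were chosen with earlier results of these data known. The number of arrays limits the precision. Promoter motifs and sequences were not analysed here.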

Additional observations from a re-analysis of the deposited data

Results flagged for a closer look

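The 45 probe sets for spiked-in control transcripts, which enter no comparison of genotypes, had a median ratio of 21.6 on wild type replicate 2 to their median on the other 11 arrays. On those 11 the same ratio was 0.53 to 1.28. Its part in the differences between genotypes was not tested beyond giving most results with and without this array.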

How the results depend on the processing

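Leaving out 1 array at a time gave 158 (without sex1-3 replicate 3) to 1211 (without wild type replicate 2) called probe sets where all 12 arrays gave 403. The 6 arrays fitted alone, with 4 residual degrees of freedom, gave 0 calls in limma (1221 at an unadjusted p below 0.05), and 732 without wild type replicate 2. Array weights gave 2015, quantile normalization 207 (1124 without replicate 2), median centring 86 (1397 without replicate 2, chosen after seeing the data) and a floor without replicate 2 1250. No filter, a filter at 60%, a floor, a pseudocount, eBayes without a trend and robust eBayes gave 299 to 401. With the replicate block the count was 305. Deviations of same-numbered arrays from their genotype means correlated at -0.069 to -0.067, and 0 of 3 sex1-3 arrays deviated most like the wild type array of its number. The wild type mean included the outlying replicate 2, so this check cannot tell whether the numbers pair the arrays. Low signal limits the sizes of the falls: 4 of the 20 largest had a mean sex1-3 signal below the floor of 4.19.

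Signs of uncalled or unstable values turned as follows. Over fits that left out 1 array, UGT74B1 ranged from -1.34 to 0.84, AT2G31790 from -0.90 to 0.22, UGT76C2 from -1.08 to 0.84, ETFQO from -0.36 to 0.99, ETFBETA from -0.73 to 0.09, D2HGDH from -0.12 to 0.19, SCPL45 from -0.94 to 0.07, AT4G16360 from -0.12 to 0.53 and TBL25 from -0.64 to 0.01. Under the other settings UGT74B1 had 0.69 (quantile) and 0.42 (median centring); AT2G31790 had 0.20 and 0.31. UGT76C2 had -1.08 in the 6 arrays alone and with a floor, -1.16 with array weights, -0.99 (quantile) and -0.92 (median centring), of which the array weights alone kept replicate 2. ETFBETA had 0.09 in the 6 arrays alone and floored without replicate 2 and with weights, 0.11 with median centring, and 0.16 and 0.24 under both scalings without replicate 2. SCPL45 had 0.16 (quantile) and 0.18 (median centring), PWD 0.25 with median centring, AMY1 0.05 and 0.10 under both scalings without replicate 2, AT4G16360 -0.12 in the 6 arrays alone and floored, -0.07 with quantile normalization, all without replicate 2, and -0.16 with weights, and TBL25 0.30 and TUA6 0.07 with median centring. The cause of these changes was not tested.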

Other observations

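The genes in the following text passed only without wild type replicate 2 (ACLA-3 excepted) and were picked after their values were seen. HEME1 and HEME2, both uroporphyrinogen decarboxylases of the haem and chlorophyll pathway, had 540, 112 and 381 and 700, 270 and 400 in wild type against 290, 282 and 211 and 291, 309 and 302 in sex1-3. Their differences were -0.81 and -0.82 without replicate 2 (adjusted p = 0.02 and 0.028), and -0.14 and -0.49 with 12 arrays. SIR, the sulfite reductase that acts downstream of APS3 in sulphate assimilation, had 695, 122 and 719 against 498, 365 and 420 and went from 0.11 with 12 arrays to -0.74 ± 0.15 (adjusted p = 0.0064). TRXF2, a thioredoxin of the chloroplast, had -0.64 (adjusted p = 0.014), and -0.41 with 12 arrays (adjusted p = 0.28).

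Subunits of ATP citrate lyase, which makes cytosolic acetyl-CoA, moved in opposite directions without replicate 2. ACLA-3 rose in both fits, and ACLB-1, the other kind of subunit, had 389, 586 and 360 against 281, 233 and 243, with a difference of -0.79 ± 0.21 (adjusted p = 0.075) and -0.57 ± 0.17 (adjusted p = 0.049) without replicate 2. F2KP, which sets the level of the sugar signal fructose 2,6-bisphosphate, had 803, 294 and 776 against 1344, 1190 and 1300 (0.69 ± 0.14, adjusted p = 0.007, without replicate 2). In the same fit FDH, a formate dehydrogenase, had 0.89 (adjusted p = 0.043) and EIN3, a transcription factor of ethylene signalling, 0.67 (adjusted p = 0.013). With 12 arrays F2KP and EIN3 had 1.17 and 1.00 (adjusted p = 0.076 and 0.054).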
